A study of Mus musculus with 6 samples.

Results

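The genes described here are 10 enzymes that turn cholesterol into bile acids and conjugate them, taken from the deposited count table by their gene symbols. All 10 were found among the 25403 genes listed, with 1 row for each symbol, and all 10 passed the filter on low counts that left 14496 genes. The table came from bulk RNA-seq of poly(A) mRNA from whole liver, with 3 livers labelled WT and 3 labelled *Themis*-KO. The WT mice were C57BL6/J and the *Themis*-KO mice lack the gene in the whole body, so that lymphocytes as well as hepatocytes carry the deletion. Mice of both groups were fed one MASH diet from an age of 10 to 12 weeks, in which fat gave 40% of the energy, fructose 20% and cholesterol was added to 2%, and which lasted 3 months, and no chow-fed liver is part of the comparison. The comparison asks how the loss of THEMIS, an adaptor protein first known from T cell receptor signalling, alters the liver under this diet. The libraries held between 20679642 and 25649767 counts.

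Bile acids are made from cholesterol in hepatocytes, and their synthesis is the main route by which the body disposes of cholesterol. The classic pathway starts in the endoplasmic reticulum with CYP7A1, and the alternative pathway starts in mitochondria with CYP27A1 and goes on through the oxysterol hydroxylase CYP7B1. Both then share enzymes that modify the sterol ring, shorten the side chain in peroxisomes and join the product to taurine or glycine. Bile acids restrain their own synthesis through the nuclear receptor FXR (*Nr1h4*) and its target SHP (*Nr0b2*), and through an intestinal growth factor that acts on FGFR4 and its coreceptor β-Klotho (*Klb*).

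A few facts about the libraries bear on all values below. *Themis* itself had a CPM, that is counts scaled to a common library size with TMM factors, of 8.07, 25.6 and 12.0 in the WT livers against 8.63, 7.74 and 9.97 in the *Themis*-KO livers. Here and below, the values of a label follow the order of its replicates 1, 2 and 3. The counts of *Themis* thus did not separate the labels, and directions below rest on the labels. *Themis*-KO replicate 3 stood apart from the other 2 livers of its label over the genes as a whole as well as in several of the enzymes. Between *Themis*-KO replicates 1 and 2, the chi-square per degree of freedom of their counts was 9.12. From these to replicate 3 it was 37.8 and 38.9. From WT replicates 1, 2 and 3 to *Themis*-KO replicate 3 it was 69.8, 38.2 and 33.1, and between WT livers 25.4 to 33.3. To *Themis*-KO replicate 1 it was 82.1, 73.7 and 55.7 from the same WT livers, and to replicate 2 it was 75.9, 79.6 and 55.8. Over the genes as a whole, *Themis*-KO replicate 3 was thus nearer to each WT liver than the other 2 livers of its label were. Reads of *mt-Nd3* and of its copy *Gm28438* were divided in another way in WT replicates 1 and 2 than elsewhere. *Gm28438* held 96.6% and 96.8% of the sum in those 2 livers and 2.20% to 3.26% in the others. This split is thus partly confounded with the labels. The 11 hepatocyte markers found summed to between 71997 and 79133 CPM in livers labelled WT and between 60245 and 62987 in livers labelled *Themis*-KO. Their median fitted log2 difference was −0.29, with 10 negative and 1 positive, *Hp* at 0.28. At an adjusted p under 0.05 in edgeR, 1 of the 11 was lower, *Cyp2e1* at −1.07, and 0 were higher, beside 4.14% and 4.97% of all genes. The summed CPM of the 9 cholangiocyte markers ranged from 167 to 207 and from 399 to 630, that of the 12 macrophage markers from 449 to 774 and from 747 to 947 and that of the 11 hepatic stellate cell markers from 437 to 489 and from 658 to 716, in the same order. Abundant genes weigh most in such sums. Of the 12 macrophage markers, 10 had a positive fitted log2 difference and 2 a negative one, *Marco* at −1.29 and *Timd4* at −0.63. All 11 stellate cell markers had a positive difference, from 0.05 for *Reln* to 1.15 for *Col1a1*. The 8 endothelial markers summed to between 284 and 321 and between 329 and 366, and the 7 T cell markers to between 3.98 and 5.52 and between 3.10 and 7.31. At an adjusted p under 0.05, 1 of the 5 T cell markers tested fell and 0 rose, beside 4.14% and 4.97% of all genes. This was *Cd4*, with a CPM of 2.02, 1.06 and 1.82 in the WT livers against 0.59, 0.52 and 0.66 in the *Themis*-KO livers. Its fitted log2 difference was −1.46 ± 0.32 (edgeR, adjusted p = 0.0386). That of *Cd8a* was 1.38 ± 0.61 (edgeR, adjusted p = 0.167). In whole tissue, fewer hepatocytes and less of an mRNA per hepatocyte cannot be told apart, no marker was at 0 in all livers, and the part of these shifts in the results was not tested.

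The upstream sequences of 3 enzymes are shown because they stand for the classic pathway (*Cyp8b1*), the alternative pathway (*Cyp27a1*) and the shared ring modification (*Akr1d1*), and because the livers differed in them in different ways. RefSeq start sites on GRCm38.p6 were available for 5 of the 10 genes, also including *Hsd3b7* and *Acox2*. Each sequence is the 250 bases before the start site, 5′ to 3′ on the strand of the gene. They lie at chr9:121916306-121916555 on the reverse strand for *Cyp8b1*, chr1:74713285-74713534 on the forward strand for *Cyp27a1* and chr6:37529923-37530172 on the forward strand for *Akr1d1*. Capitals mark matches on either strand to CAAAGTCCA, a site type of HNF4, to CAAGGNCA, a site type of NR5A2, or to AGGTCA, the half-site common to many nuclear receptors.
Cyp8b1: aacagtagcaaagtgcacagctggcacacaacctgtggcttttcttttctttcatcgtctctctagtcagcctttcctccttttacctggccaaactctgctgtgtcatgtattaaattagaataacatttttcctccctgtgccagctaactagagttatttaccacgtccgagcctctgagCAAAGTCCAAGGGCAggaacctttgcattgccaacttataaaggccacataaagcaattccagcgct
Cyp27a1: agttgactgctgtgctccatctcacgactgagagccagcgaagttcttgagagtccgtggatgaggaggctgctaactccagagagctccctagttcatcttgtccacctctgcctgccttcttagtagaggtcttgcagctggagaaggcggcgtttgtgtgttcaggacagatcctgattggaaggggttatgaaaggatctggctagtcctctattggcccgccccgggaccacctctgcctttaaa
Akr1d1: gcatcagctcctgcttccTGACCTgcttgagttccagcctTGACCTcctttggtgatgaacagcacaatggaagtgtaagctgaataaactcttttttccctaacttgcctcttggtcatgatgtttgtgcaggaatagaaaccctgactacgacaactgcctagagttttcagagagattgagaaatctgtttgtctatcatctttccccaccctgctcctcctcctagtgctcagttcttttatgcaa
The *Cyp8b1* sequence held the HNF4 type of site at 67 bases and the NR5A2 type at 60 bases before the start, and the 2 matches overlap. Of the 32851 windows of the same length in the table, 0.384% held the HNF4 type, 5.53% the NR5A2 type and 14.0% the half-site. The *Akr1d1* sequence held 2 half-sites, at 232 and 210 bases before the start and on the opposite strand. None of the 3 letter patterns occurred in the window of *Cyp27a1*, of *Hsd3b7* or of *Acox2*. A match is a description of the letters and not evidence of binding.

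Most of the bile acid enzymes had lower counts in livers labelled *Themis*-KO, with the largest fitted differences in *Cyp7b1* and *Cyp7a1*. Of the 10, 3 fell, *Cyp7b1*, *Slc27a5* and *Cyp27a1*, when p values of the quasi-likelihood test in edgeR were adjusted over all genes and read at 0.05. Over all genes tested, 4.14% fell by this rule, 4.97% rose and 9.11% did either. None of the 10 rose by edgeR, and at an unadjusted p under 0.05 8 were lower and 0 higher, beside 13.9% and 16.8% of all genes. In 8 of the 10, every liver labelled *Themis*-KO lay below every liver labelled WT, against 16.9% of all genes tested. The median fitted log2 difference of the 10 was −0.61, beside 0.0095 over all genes. The CPM of the 10 genes summed to 2314, 2542 and 2114 in the WT livers against 1446, 1360 and 1707 in the *Themis*-KO livers.
The count of 3 depended on the livers and the tool. It was 8 with DESeq2, where 7.64% of all genes tested fell, 1 with the replicate number as a block, where 0.310% fell, and 0 with the split by *mt-Nd3* and *Gm28438* as a covariate, where 0.0207% fell. It was 9 without *Themis*-KO replicate 3, where 13.8% of all genes fell, and 3 without WT replicate 3, where 2.49% fell. It was 0 without *Themis*-KO replicate 1 or 2, where 0.0814% and 0.278% of all genes fell, and 1 without WT replicate 1 or 2, where 0.216% and 0.384% fell. In these fits the number of calls thus moved over all genes and not for these enzymes alone. With other filters it did not move alike. The count of enzymes was 8 with no filter on low counts, where 3.81% of all genes fell. It was 5 with at least 10 counts in every liver, where 4.46% fell.

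**Figure D1:**
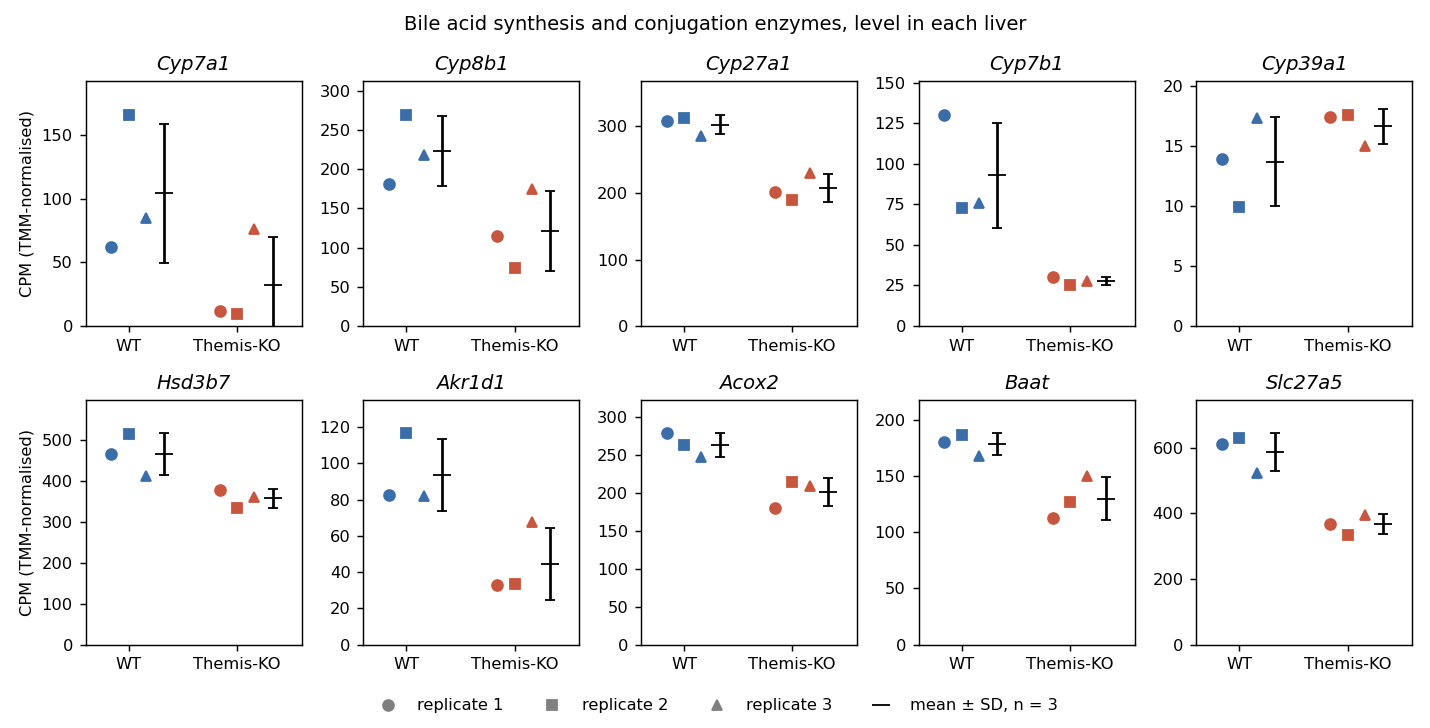
CPM of each of the 10 enzymes in each liver, on linear axes that start at 0, with the 3 WT livers on the left and the 3 *Themis*-KO livers on the right of each panel, the marker shape for the replicate number and black bars for the mean ± SD (n = 3). The groups are apart in 8 panels, and *Themis*-KO replicate 3 lies among the WT livers in *Cyp7a1*, where the lower SD bar runs past 0 and is not drawn to its end.

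*Cyp7a1* (ENSMUSG00000028240, GRCm38 chromosome 4 from 6265612 to 6275633, reverse strand) encodes the cholesterol hydroxylase that limits the rate of the classic pathway. Its CPM was 61.6, 165.7 and 85.0 in the WT livers against 11.6, 9.33 and 75.8 in the *Themis*-KO livers. *Themis*-KO replicates 1 and 2 lay far below all WT livers, while *Themis*-KO replicate 3 lay between WT replicates 1 and 3 and at 7.24 times the mean of the other 2. The fitted log2 difference (*Themis*-KO minus WT, ± SE) was −1.70 ± 0.78 (95% interval −3.50 to 0.11), with an adjusted p of 0.183 from edgeR. Without *Themis*-KO replicate 3 it was −3.33 with an adjusted p of 0.00325. The spread among livers with one label was the widest of the 10 enzymes, at 2.69 times from the lowest to the highest WT liver and 8.12 times among those labelled *Themis*-KO.

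*Cyp8b1* (ENSMUSG00000050445, chromosome 9 from 121914356 to 121916305, reverse strand) encodes the sterol hydroxylase that directs the classic pathway to cholic acid, and its upstream sequence is the first of those above. Its CPM was 181.4, 269 and 218 in the WT livers against 114, 73.5 and 175 in the *Themis*-KO livers. The groups did not overlap, but *Themis*-KO replicate 3 came within 1.04 times of the lowest WT liver. The fitted log2 difference of −0.88 ± 0.29 (95% interval −1.56 to −0.21) had an adjusted p of 0.0910 from edgeR. It passed with DESeq2, at an adjusted p of 0.0111, and without *Themis*-KO replicate 3, at −1.27 with an adjusted p of 0.00797.

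*Cyp27a1* (ENSMUSG00000026170, chromosome 1 from 74713574 to 74737892, forward strand) encodes the mitochondrial sterol hydroxylase that opens the alternative pathway and also oxidises the side chain of classic intermediates. Its CPM was 309, 314 and 286 in the WT livers against 201, 190 and 231 in the *Themis*-KO livers. The livers of each label lay close together, with 1.10 times between the extremes of WT and 1.22 times between those of *Themis*-KO, and the groups were apart. The fitted log2 difference was −0.55 ± 0.10 (adjusted p = 0.0264), a level 1.46-fold lower. With the replicate number as a block the adjusted p was 0.0985. It passed in 2 of the 6 fits that each left out 1 liver, those without WT replicate 3 and without *Themis*-KO replicate 3.

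*Cyp7b1* (ENSMUSG00000039519, chromosome 3 from 18071950 to 18243338, reverse strand) encodes the oxysterol hydroxylase that follows CYP27A1 and is known to be expressed more in male than in female mouse liver. Its CPM was 130, 72.5 and 75.8 in the WT livers against 30.3, 25.5 and 27.5 in the *Themis*-KO livers. The 3 livers labelled *Themis*-KO were nearly alike, and the highest of them lay 2.40 times below the lowest WT liver, the widest gap of the 10 enzymes. The fitted log2 difference of −1.74 ± 0.22 (95% interval −2.26 to −1.22) had an adjusted p of 0.0123 from edgeR, a level 3.34-fold lower. It passed in 7 of the 8 other settings and in 4 of the 6 fits with 1 liver left out, where the difference ran from −1.89 to −1.42, and not without *Themis*-KO replicate 1 or 2. With the replicate number as a block it was −1.69 with an adjusted p of 0.0233. With the *mt-Nd3* and *Gm28438* split as a covariate it was −1.45 with an adjusted p of 0.264.

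Markers of sex were set beside *Cyp7b1*, since the study describes the mice of this feeding experiment as male. The Y-linked gene *Ddx3y* had a CPM between 36.3 and 45.4 in all 6 livers, and *Xist*, the RNA that silences the second X chromosome of females, had between 1 and 8 counts in each. Of 8 genes known for higher expression in male liver, 6 were lower at an adjusted p under 0.05, beside 4.14% of all genes, and the median fitted log2 difference of the 8 was −1.27. *Slco1a1*, an organic anion transporter, is among these 6 and is counted again with the transporters below. *Hsd3b5* changed by −7.13 ± 1.14 (edgeR, adjusted p = 0.0206). Its CPM was 30.3, 2.59 and 12.6 in the WT livers, and its counts were 3, 3 and 1 in the *Themis*-KO livers. *Cyp2d9* changed by −1.06 ± 0.16 (edgeR, adjusted p = 0.0170). *Elovl3*, a fatty acid elongase, changed by −1.37 ± 0.16 (adjusted p = 0.0104), *Cyp4a12a*, a fatty acid hydroxylase with a near-identical copy, by −1.17 ± 0.17 (adjusted p = 0.0152) and the complement gene *C6* by −0.73 ± 0.17 (adjusted p = 0.0418). *Mup20*, a pheromone-binding urinary protein of males, had a fitted log2 difference of 0.11 ± 0.18 (adjusted p = 0.693). Of 8 genes known for higher expression in female liver, 4 had enough counts to test, and 0 passed by edgeR. At an unadjusted p under 0.05, 2 of the 4 were higher, beside 16.8% of all genes. They were *Cyp2a4* and *Cyp2b9*, with fitted log2 differences of 2.46 and 0.90. The other 2 had negative differences, *Acot3* at −0.77 ± 0.37 (edgeR, adjusted p = 0.199) and *Hao2* at −0.05 ± 0.40 (edgeR, adjusted p = 0.942). The part of the sex-biased genes in the *Cyp7b1* result was not tested.

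*Cyp39a1* (ENSMUSG00000023963, chromosome 17 from 43667425 to 43751431, forward strand) encodes a minor oxysterol hydroxylase that acts on the cholesterol derivative made mainly in brain. Its CPM was 13.9, 9.89 and 17.3 in the WT livers against 17.4, 17.6 and 15.0 in the *Themis*-KO livers. The groups overlapped, and this was the sole enzyme of the 10 with a positive fitted difference, at 0.28 ± 0.19 (95% interval −0.17 to 0.73, adjusted p = 0.360). The sign turned to −0.057 with the *mt-Nd3* and *Gm28438* split as a covariate.

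**Figure D2:**
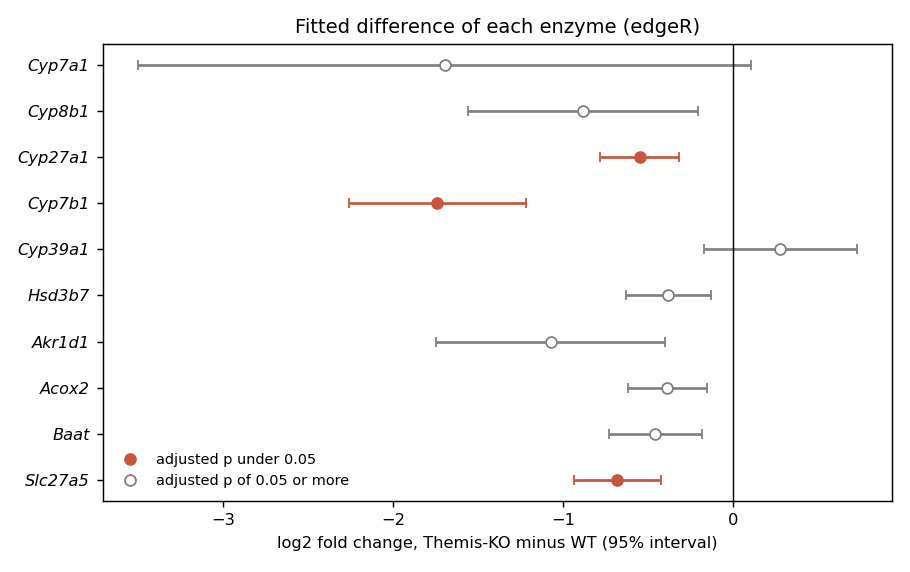
Fitted log2 difference of each enzyme, *Themis*-KO minus WT, with its 95% interval from edgeR's quasi-likelihood fit on 3 livers per label. Filled points passed an adjusted p of 0.05, and the intervals of *Cyp7a1* (−3.50 to 0.11) and *Cyp39a1* (−0.17 to 0.73) include 0.

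Both enzymes of the shared ring modification were lower in all livers labelled *Themis*-KO, though neither passed the test over all genes. *Hsd3b7* (ENSMUSG00000042289, chromosome 7 from 127800604 to 127803802, forward strand) encodes the dehydrogenase that acts on the sterol ring after its hydroxylation. Its CPM was 467, 516 and 413 in the WT livers against 378, 334 and 360.2 in the *Themis*-KO livers. The fit gave a difference of −0.38 ± 0.11 (adjusted p = 0.0639). Its exons overlap those of *Gm49388* on the same strand and of *9430064I24Rik* on the other, with which reads can be shared. *Akr1d1* (ENSMUSG00000038641, chromosome 6 from 37530173 to 37568815, forward strand) encodes the reductase that gives the ring its bent shape. Its CPM was 82.5, 116.5 and 81.9 in the WT livers against 32.6, 33.6 and 67.5 in the *Themis*-KO livers. *Themis*-KO replicate 3 was again the nearest to WT, at 2.04 times the mean of the other 2 livers of its label. The fit gave a difference of −1.07 ± 0.29 (95% interval −1.75 to −0.40, adjusted p = 0.0582). Without *Themis*-KO replicate 3 it was −1.52 with an adjusted p of 0.00214.

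The enzymes of side chain shortening and conjugation had smaller differences than *Cyp7b1*, and the *Slc27a5* mRNA alone among them passed the test. *Acox2* (ENSMUSG00000021751, chromosome 14 from 8225511 to 8259353, reverse strand) encodes the peroxisomal oxidase that starts the shortening. Its CPM was 278, 262 and 246 in the WT livers against 180, 214 and 208 in the *Themis*-KO livers, without overlap, and fitted at a difference of −0.39 ± 0.10 (adjusted p = 0.0520). *Slc27a5* (ENSMUSG00000030382, chromosome 7 from 12988346 to 12998192, reverse strand) encodes the ligase that activates bile acids with coenzyme A before conjugation. Its CPM was 611, 629 and 522 in the WT livers against 368, 335 and 396 in the *Themis*-KO livers. All livers labelled *Themis*-KO lay below all WT livers, and their fitted difference was −0.68 ± 0.11 (adjusted p = 0.0209), a level 1.6-fold lower. With the replicate number as a block the adjusted p was 0.0888, and the call was kept without WT replicate 3 or *Themis*-KO replicate 3 and lost without each of the other 4 livers. *Baat* (ENSMUSG00000039653, chromosome 4 from 49489422 to 49506557, reverse strand) encodes the transferase that joins the activated bile acid to taurine or glycine. Its CPM was 181, 187 and 168 in the WT livers against 113, 127 and 151 in the *Themis*-KO livers, again without overlap. The fitted log2 difference of −0.46 ± 0.12 (95% interval −0.73 to −0.18) had an adjusted p of 0.0515 from edgeR. With DESeq2, the adjusted p was 0.0148 for *Hsd3b7*, 0.0017 for *Akr1d1*, 0.00858 for *Acox2* and 0.00837 for *Baat*.

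Levels were also compared between the enzymes, as CPM per kilobase of annotated exon in GENCODE vM21. In livers labelled WT, *Slc27a5* was the most abundant at 241 ± 23.5 CPM per kilobase, then *Hsd3b7* at 168 ± 18.6, *Cyp27a1* at 139 ± 6.76 and *Cyp8b1* at 114 ± 22.6 (SD, n = 3 each). *Baat* followed at 92.0 ± 5.03 and *Acox2* at 70.8 ± 4.25, then *Cyp7b1* at 42.9 ± 14.9, *Akr1d1* at 32.4 ± 6.85, *Cyp7a1* at 24.9 ± 13.1 and *Cyp39a1* at 4.49 ± 1.22 (SD, n = 3 each). The ranges of neighbours in this order overlapped for *Cyp27a1* with *Cyp8b1*, *Cyp8b1* with *Baat*, *Cyp7b1* with *Akr1d1* and *Akr1d1* with *Cyp7a1*, and those of the other neighbours did not. In livers labelled *Themis*-KO, *Baat*, at 67.0 ± 9.87, stood above *Cyp8b1*, at 62.0 ± 26.2, and *Akr1d1*, at 15.4 ± 6.88, above *Cyp7b1*, at 12.8 ± 1.09 (SD, n = 3 each), with overlapping ranges in both cases. *Cyp7a1*, the entry enzyme of the classic pathway, thus had a lower level per kilobase than *Cyp27a1*, that of the alternative pathway, in every liver of this diet.

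Ratios of counts within a liver do not depend on library scaling, and 4 were compared as differences of log2(count + 2). The log2 ratio of *Cyp7b1* to *Cyp27a1*, successive enzymes of the alternative pathway, was −1.76 ± 0.45 in livers labelled WT and −2.89 ± 0.17 in those labelled *Themis*-KO (SD, n = 3 each), without overlap. The exact two-sided permutation p was 0.1, the smallest that 3 livers against 3 allow, and 0.4 after Benjamini-Hochberg adjustment over the 4 ratios. The log2 ratio of *Cyp8b1* to *Cyp7a1*, both of the classic pathway, was 1.21 ± 0.45 and 2.49 ± 1.1 (SD, n = 3 each), with an exact permutation p of 0.3, and *Themis*-KO replicate 3, at 1.21, lay among the WT livers. That of *Cyp7b1* to *Cyp7a1* differed by 0.55 (exact permutation p = 0.6) and that of *Baat* to *Slc27a5* by 0.21 (exact permutation p = 0.2), both within the overlap of the groups.

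Within the labels, the enzymes differed in how their levels varied from liver to liver. As a description over the 6 livers, the deviations of log2 CPM from the mean of each label had a Pearson r of 0.98 between *Cyp7a1* and *Akr1d1*, 0.92 between *Cyp7a1* and *Cyp8b1* and 0.90 between *Akr1d1* and *Baat*. The points share library depth and scaling. Such values are not particular to these enzymes. Among 14486 genes outside the 10, 406 had an r over 0.95 to *Cyp7a1*, 453 to *Akr1d1*, 209 to *Cyp8b1* and 276 to *Baat*. Of the 45 pairs of enzymes, 10 had an r over 0.8, the median was 0.30 and the lowest was −0.85, between *Cyp39a1* and *Hsd3b7*. *Cyp7b1*, with an r of −0.31 to *Cyp7a1*, did not follow the classic enzymes from liver to liver. *Cyp27a1*, also of the alternative pathway, had an r of 0.87 to *Cyp7a1*, 0.83 to *Cyp8b1* and 0.88 to *Akr1d1*. The patterns were thus not divided by pathway. *Themis*-KO replicate 3 stood at 7.24, 2.04, 1.86 and 1.26 times the mean of the other 2 livers of its label in *Cyp7a1*, *Akr1d1*, *Cyp8b1* and *Baat* and at 0.985 times in *Cyp7b1*.

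Further enzymes of bile acid metabolism were read from a list of 16, all of which were tested. Of these, 4 fell and 1 rose, beside the 4.14% and 4.97% of all genes, and the median fitted log2 difference was −0.34. *Amacr*, the racemase that prepares the side chain for ACOX2, had a CPM of 144, 142 and 127 in the WT livers against 71.3, 75.8 and 102 in the *Themis*-KO livers, a fitted log2 difference of −0.73 ± 0.14 (adjusted p = 0.0304). *Slc27a2*, a ligase for very long chain fatty acids and sterol side chains, changed by −0.62 ± 0.10 (adjusted p = 0.0224). *Por*, the reductase that feeds electrons to microsomal P450 enzymes, changed by −0.53 ± 0.11 (adjusted p = 0.0367), and the steroid reductase *Srd5a1* by −0.56 ± 0.12 (adjusted p = 0.0345). *Ch25h*, which makes an oxysterol outside the main pathways, rose by 2.84 ± 0.67 (adjusted p = 0.0418), from 5, 6 and 12 counts in the WT livers to 106, 46 and 17 in the *Themis*-KO livers. *Cyp2c70*, the mouse enzyme of muricholic acid synthesis, had a fitted log2 difference of −0.74 ± 0.27 (adjusted p = 0.116), and its groups overlapped. With the replicate number as a block, 0 of the 16 passed in edgeR, with adjusted p of 0.0912 for *Amacr* and 0.104 for *Ch25h*.

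The regulators of the pathway were read from a list of 18, of which 17 were tested. Of these, 4 fell and 0 rose by edgeR, beside the 4.14% and 4.97% of all genes. At an unadjusted p under 0.05, 7 were lower and 0 higher, beside 13.9% and 16.8%. *Nr0b2*, the repressor SHP, had a CPM of 18.7, 26.4 and 24.2 in the WT livers against 11.4, 15.1 and 15.1 in the *Themis*-KO livers, below all WT livers. Its fitted log2 difference was −0.73 ± 0.17 (adjusted p = 0.0397). *Klb* changed by −0.49 ± 0.12 (adjusted p = 0.0487), *Rxra*, the partner receptor of FXR, by −0.42 ± 0.09 (adjusted p = 0.0351) and *Ppara*, the fatty acid receptor, by −0.52 ± 0.11 (adjusted p = 0.0345). *Nr1h4* itself had a CPM of 118, 148 and 130.3 in the WT livers against 103, 94.5 and 133 in the *Themis*-KO livers, with overlap and a fitted log2 difference of −0.27 ± 0.15 (adjusted p = 0.250). *Nr5a2*, the activator LRH-1, had −0.29 ± 0.12 (adjusted p = 0.156). *Fgfr4* had a difference of 0.06 (95% interval −0.16 to 0.28, adjusted p = 0.687). *Fgf15*, the intestinal growth factor, was listed at 3 counts in 1 liver and 0 in the other 5, and was not tested. With the replicate number as a block 0 of the 17 regulators passed in edgeR, with an adjusted p of 0.0643 for *Nr0b2*, and 1 of the 17 passed with scaling by total counts.

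Transporters of bile acids and sterols were read from a list of 13, of which 12 were tested, 6 fell and 1 rose, beside the 4.14% and 4.97% of all genes. *Slc10a1*, the bile acid importer NTCP, had a CPM of 312, 322 and 301 in the WT livers against 116, 92.2 and 169 in the *Themis*-KO livers, a fitted log2 difference of −1.31 ± 0.20 (adjusted p = 0.0185). *Abcb11*, the bile salt export pump, changed by −0.45 ± 0.11 (adjusted p = 0.0435), *Slco1a1* by −2.89, *Slco1b2* by −0.53, *Abcg5* by −0.95 and *Abcg8* by −0.97, and *Abcc4*, an exporter on the blood side, rose by 1.03 ± 0.19 (adjusted p = 0.0273). With the replicate number as a block, 1 of the 12 was lower and 0 higher in edgeR, with an adjusted p of 0.0544 for *Slc10a1*.

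**Figure D3:**
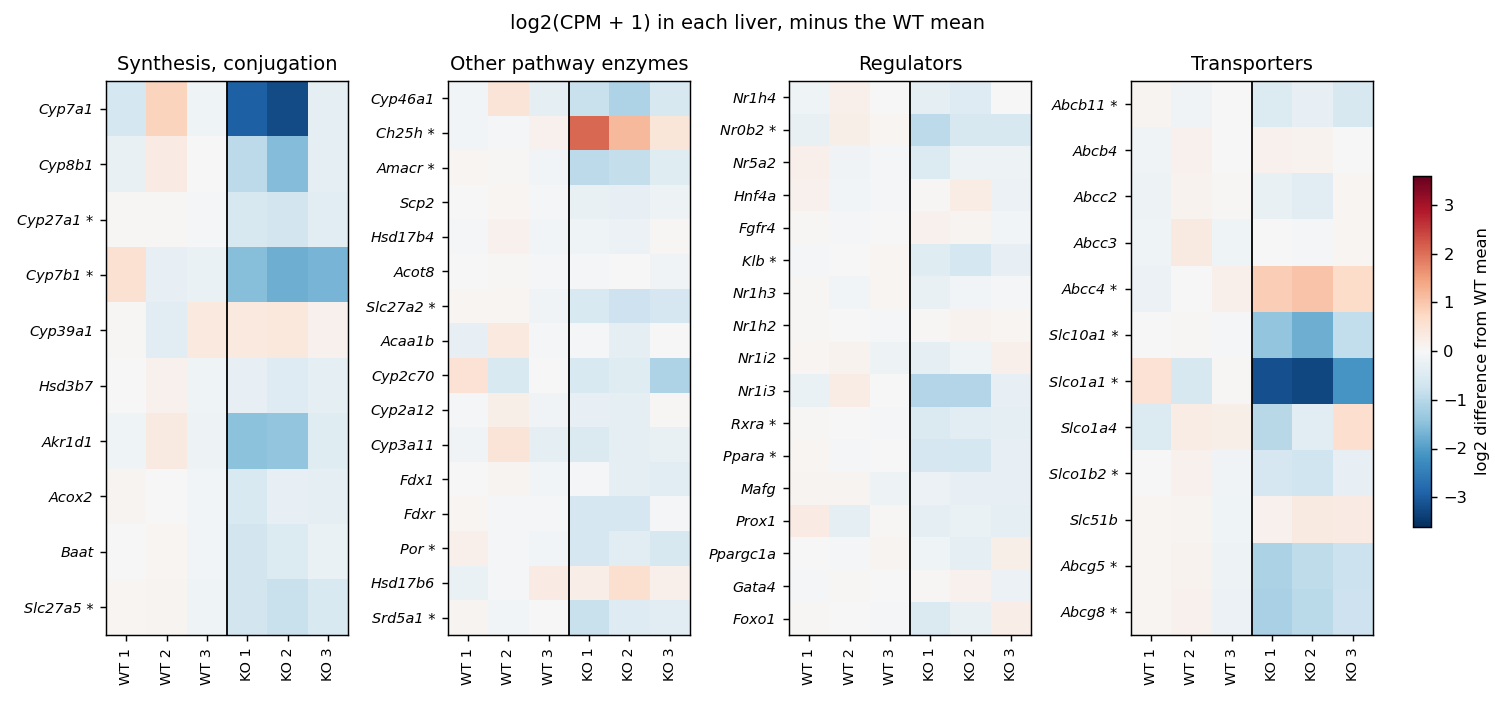
Difference of log2(CPM + 1) from the WT mean in each liver (columns) for the 10 enzymes and the tested genes of the 3 companion lists (rows), with stars for an adjusted p under 0.05 and blue for lower values. Within its row, *Cyp7a1* is darker in *Themis*-KO replicates 1 and 2 (11.6 and 9.33 CPM) and pale in replicate 3 (75.8 CPM), while *Cyp7b1* and *Slco1a1* are blue in all 3.

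**Figure D4:**
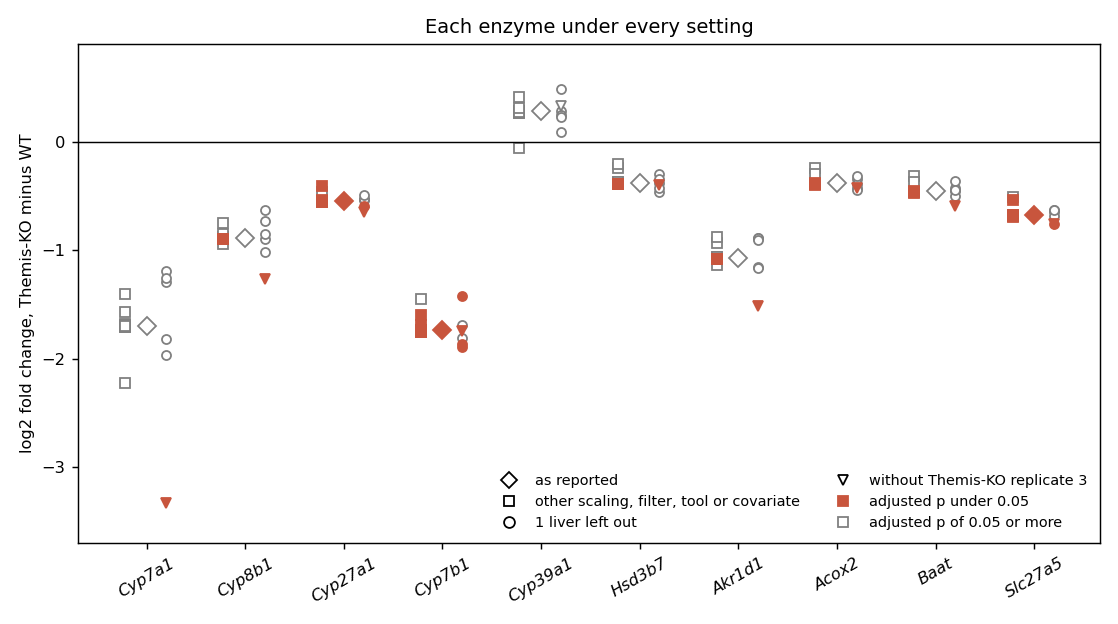
Log2 fold change of each enzyme (*Themis*-KO minus WT) as reported (diamonds), under 8 other settings of scaling, filter, tool or covariate (squares) and with each of the 6 livers left out (circles, and triangles for *Themis*-KO replicate 3). Filled symbols have an adjusted p under 0.05. The values of 9 enzymes stay below 0 in all 14 other fits, those of *Cyp39a1* range from −0.057 to 0.48, and *Cyp7a1* moves to −3.33 without *Themis*-KO replicate 3.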

How the data were processed

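Poly(A) mRNA of 3 livers labelled WT and 3 labelled *Themis*-KO was sequenced. Per the paper's methods and the submitters' processing notes, the authors used cutadapt 2.3, mapped paired-end reads to GRCm38 with STAR 2.7.8a and deposited RSEM 1.3.3 estimated counts per gene and liver, not normalized and as whole numbers. The release of the annotation is not given in the sources used here. RSEM divides reads that fit several genes.

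Counts were analysed with R 4.3.3 and edgeR 4.0.16: filterByExpr (14496 of 25403 genes kept), TMM, glmQLFit and glmQLFTest without covariates on all 6 livers, and Benjamini-Hochberg adjustment over all genes tested, with a threshold of 0.05. SE were the size of each fitted difference divided by the root of F. The fit was tested on simulated data. Log2 CPM for correlations used a prior count of 2. Positions and exon lengths came from GENCODE vM21, in which 25321 of the 25403 listed IDs were found. Figures used matplotlib 3.10.9. No pair of libraries agreed within sampling noise (lowest chi-square per degree of freedom 9.12, between *Themis*-KO replicates 1 and 2). The study speaks of pairs of WT and *Themis*-KO livers here and of littermates for its chow-fed mice, but neither it nor the labels say which livers form a pair or whether the livers of a label share a litter or cage, so p-values measure the spread between these livers.

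The 10 enzymes, the companion and marker lists and the alternatives were chosen with earlier results of these data known. Named are all 10 enzymes, every companion gene with an adjusted p under 0.05 and a fixed set of regulators and enzymes; the sex-biased genes and clock genes named were picked after their values were seen. Alternatives were RLE, upper quartile and total count scaling, 2 other filters, DESeq2 1.42.0, the replicate number as a block, the *mt-Nd3* and *Gm28438* split and each liver left out. A further clock gene that was read is not reported here.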

Additional observations from a re-analysis of the deposited data

How the results depend on the processing

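Over the 8 other settings and the 6 fits with 1 liver left out, 9 of the 10 enzymes kept a negative log2 fold change in all 14. *Cyp39a1* turned to −0.057 with the *mt-Nd3* and *Gm28438* split as a covariate, which leaves 1 WT liver to compare within a type. The number of enzymes lower at an adjusted p under 0.05, 3 as reported, was 8 with no filter on low counts, 5 with at least 10 counts in every liver, 8 with DESeq2, 1 with the replicate block and 0 with the split, and ran from 0 to 9 with 1 liver left out. In the same order, the share of all genes tested that was lower, 4.14% as reported, was 3.81%, 4.46%, 7.64%, 0.310% and 0.0207%, and ran from 0.0814% (12 genes, without *Themis*-KO replicate 1) to 13.8%. At an unadjusted p under 0.05 it was 9 with the block and 3 with the split. Deviations from the label means were not shared by livers of one replicate number (mean correlation −0.13, highest 0.00028), so the numbers were not taken to pair livers. Which livers form the pairs of which the study speaks is not given in the sources used here.
Among the 16 other pathway enzymes, the 4 lower became 2 with total counts alone, 7 with DESeq2, and 0 with the replicate block or the split, and from 0 to 6 with 1 liver left out, at 0 without WT replicate 1 or 2 or *Themis*-KO replicate 1 or 2. The 1 higher (*Ch25h*) became 0 with at least 10 counts in every liver, where it was not tested, with the block and with the split, and from 0 to 1 with 1 liver left out. Among the regulators, the 4 lower became 1 with total counts alone and 0 with the block or the split, and from 0 to 7 with 1 liver left out, at 7 without *Themis*-KO replicate 3 and 0 without any other. Among the transporters, the 6 lower became 1 with the block and 0 with the split, and from 0 to 6 with 1 liver left out, at 0 without WT replicate 1 or *Themis*-KO replicate 1 or 2, and the 1 higher became 0 with the block or the split, and from 0 to 1 with 1 liver left out. Total counts alone moved the median log2 fold change of all genes from 0.0095 to 0.15 and that of the 10 enzymes from −0.61 to −0.48.
The difference in the log2 ratio of *Cyp7b1* to *Cyp7a1* (0.55) was −0.0033 without WT replicate 2 and ran from −0.0033 to 1.5 with 1 liver left out. The other 3 ratios kept their direction in all settings. The cause of these dependences was not tested. With 3 livers per label, the precision is set by the spread between livers rather than by depth, since each enzyme had at least 206 counts in every liver.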

Other observations

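Genes whose mRNA oscillates with the liver clock were read beside *Cyp7a1*, itself known for a daily rhythm, and were chosen after their values were seen. The time of day at which livers were collected is not given in the sources used here. *Per3*, a period gene, had a CPM of 43.9, 59.3 and 44.6 in the WT livers, in replicate order, against 26.7, 26.7 and 45.8 in the *Themis*-KO livers. *Hlf*, a clock output factor, had 53.1, 64.6 and 53.9 and then 34.2, 31.9 and 58.3 CPM in the same order. In both of these genes *Themis*-KO replicate 3 was close to the WT livers and the other 2 livers of its label were lower, as in *Cyp7a1* and *Akr1d1*. *Bhlhe40*, a clock repressor, had 107, 124 and 143 CPM in livers labelled WT and 219, 182 and 119 in those labelled *Themis*-KO, so that replicate 3 was again the one near WT. *Arntl*, which encodes the clock activator BMAL1, had 2.39, 1.58 and 2.01 CPM and then 2.85, 4.60 and 0.992 CPM, with the lowest value in *Themis*-KO replicate 3. None of these 4 genes passed an adjusted p of 0.05 between the labels (edgeR, adjusted p from 0.135 for *Per3* to 0.499 for *Arntl*), and at an unadjusted p under 0.05 *Per3* was lower. Clock genes also read were *Dbp*, with 137.2, 169.6 and 119.9 CPM in livers labelled WT and 101, 87.9 and 133 in those labelled *Themis*-KO, *Tef*, *Nr1d1* and *Nfil3*. *Nr1d1*, a clock repressor, had 61.6, 65.8 and 45.1 and then 80.2, 70.5 and 43.8 CPM, so that *Themis*-KO replicate 3 lay beside WT replicate 3 and below the other 2 WT livers. The adjusted p of *Dbp*, *Tef*, *Nr1d1* and *Nfil3* was 0.171, 0.0848, 0.633 and 0.750. The part of these genes in the *Cyp7a1* values was not tested.

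By the deviations from the label means over the 6 livers, the tested genes most like *Cyp7a1* were *Pcbd1*, *Nkd1* and *Pfkm*, with r of 0.999, 0.999 and 0.998, and those most like *Cyp7b1* were *Cdcp1*, *Anxa9* and *Ccl21a*, with 0.9997, 0.994 and 0.991. With 6 livers such values are common, and 406 of 14486 genes had an r over 0.95 to *Cyp7a1* and 55 to *Cyp7b1*.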
